A study of Mus musculus with 48 samples.

Results

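The genes described here are 7 members of the retinoic acid pathway, *Aldh1a1*, *Aldh1a2*, *Aldh1a3*, *Crabp1*, *Crabp2*, *Rarb* and *Cyp26b1*, all of which were present among the 16510 genes of a single cell expression table. They were named with earlier results of these data known, *Aldh1a1* for its fall and *Crabp1* for its rise in mutants, so that their difference between genotypes is a description and carries no p-value. The table held 14121 cells of the mouse hypothalamus at E18.5. The control group was *Eed fl/fl*, with both copies of *Eed* floxed and no Cre, and consisted of 6 embryos (2 female and 4 male). The *Eed-cKO* group was *Eed fl/fl; Sox1-Cre/+*, with the same floxed alleles and a Cre expressed from *Sox1* in the early neuroectoderm, and consisted of 9 embryos (5 female and 4 male). Cells of non-neural origin, such as those of vessels and meninges, are outside the main domain of this Cre. Each embryo gave 1 to 4 libraries, 22 in control and 26 in *Eed-cKO*, and the embryo was used as the replicate. The control embryos came from 4 dams and the *Eed-cKO* embryos from 6 dams, of which 0 gave both genotypes, so that dam and genotype cannot be told apart.

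Retinoic acid is a small lipid signal made from vitamin A. Retinol is taken up and oxidised to retinal, and the retinaldehyde dehydrogenases encoded by *Aldh1a1*, *Aldh1a2* and *Aldh1a3* oxidise retinal to retinoic acid. The binding proteins encoded by *Crabp1* and *Crabp2* carry retinoic acid in the cytoplasm, *Rarb* encodes a nuclear receptor for it and is itself a classical target, and *Cyp26b1* encodes an enzyme that degrades it. In the embryo, retinoic acid patterns the hindbrain and spinal cord and acts on *Hox* genes, the meninges are a known source of it, and *Aldh1a1* is a known marker of a subset of midbrain dopamine neurons. *Eed* encodes a core subunit of polycomb repressor complex 2, which places the repressive histone mark H3K27me3.

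In the GENCODE vM21 annotation of mm10, the build used for the table, *Aldh1a1* lies on the plus strand at chr19:20492715-20643465, *Aldh1a2* on the plus strand at chr9:71215789-71296243 and *Aldh1a3* on the minus strand at chr7:66390890-66427517. *Crabp1* lies on the plus strand at chr9:54764748-54773110, *Crabp2* on the plus strand at chr3:87948666-87953376, *Rarb* on the minus strand at chr14:16430839-16819156 and *Cyp26b1* on the minus strand at chr6:84571414-84593908. *Aldh1a1*, *Aldh1a2* and *Rarb* overlap annotated genes of the opposite strand (*C730002L08Rik* over an exon of *Aldh1a1*, and *Top2b* and *Gm48162* over exons of *Rarb*). Whether counting used strand is not given in the sources used here, so that reads of such pairs could be mixed. RefSeq promoter windows (GRCm38.p6) of 300 bases, from 250 before to 50 after a start site, were found for 5 of the 7 members. Of them, 4 are shown because they belong to the receptor gene and to the members with the widest gaps between genotypes, with CG pairs in capitals, except in *Rarb*, where capitals mark a direct repeat of 2 half-sites. The windows are *Aldh1a1* at chr19:20601718-20602017, *Aldh1a2* at chr9:71215539-71215838 and *Crabp1* at chr9:54764498-54764797, all on the plus strand, and *Rarb* at chr14:16575427-16575726 on the minus strand.
Aldh1a1: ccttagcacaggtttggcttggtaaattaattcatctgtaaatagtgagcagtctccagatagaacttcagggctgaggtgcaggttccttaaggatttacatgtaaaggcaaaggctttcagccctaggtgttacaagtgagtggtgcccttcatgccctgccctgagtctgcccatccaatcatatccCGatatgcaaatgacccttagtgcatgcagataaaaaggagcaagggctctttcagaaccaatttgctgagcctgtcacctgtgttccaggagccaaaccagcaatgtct
Aldh1a2: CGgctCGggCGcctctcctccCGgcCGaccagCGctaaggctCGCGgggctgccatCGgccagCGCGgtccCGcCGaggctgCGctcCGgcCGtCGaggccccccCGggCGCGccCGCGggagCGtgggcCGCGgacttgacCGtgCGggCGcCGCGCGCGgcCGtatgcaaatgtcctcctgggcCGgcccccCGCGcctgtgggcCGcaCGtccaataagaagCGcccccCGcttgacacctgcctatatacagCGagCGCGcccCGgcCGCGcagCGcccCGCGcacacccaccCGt
Crabp1: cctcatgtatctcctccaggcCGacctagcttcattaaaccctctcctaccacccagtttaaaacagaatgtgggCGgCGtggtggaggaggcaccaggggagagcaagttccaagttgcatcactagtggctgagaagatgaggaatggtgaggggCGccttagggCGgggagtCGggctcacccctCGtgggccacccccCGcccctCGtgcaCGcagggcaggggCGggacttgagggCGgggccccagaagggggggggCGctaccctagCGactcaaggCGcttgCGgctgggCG
Rarb: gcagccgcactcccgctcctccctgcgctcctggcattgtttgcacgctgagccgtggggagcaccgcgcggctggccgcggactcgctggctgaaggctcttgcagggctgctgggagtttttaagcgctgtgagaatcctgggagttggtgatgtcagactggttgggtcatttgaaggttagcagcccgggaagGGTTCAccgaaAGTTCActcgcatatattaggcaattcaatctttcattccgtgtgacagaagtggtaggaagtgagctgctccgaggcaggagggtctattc

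The *Aldh1a2* window held 50 CG pairs, as many as or more than all but the top 0.855% of 32851 windows, against a median of 7. The *Crabp1* and *Rarb* windows held 17 each and the *Cyp26b1* window 9. The printed *Aldh1a1* window held 1, and a second window of this gene at chr19:20492333-20492632 held 3. Direct repeats of retinoic acid receptor half-sites were searched on both strands. The half-sites allowed were AGGTCA, in which the first letter could also be G (as in GGGTCA) and the third letter could also be T (as in AGTTCA or, with both changes, GGTTCA). Such a repeat with a spacer of 5 bases stood 53 to 37 bases before the start site of the printed *Rarb* window. That site lies inside the annotated gene, whose 5′ end is at 16819156. The same search found such a repeat in 32 windows, 0.097% of all, and in no other member's window. With a spacer of 2 bases it matched 88 windows (0.268%) and 0 members. These matches describe letters in the reference and were not measured in the cells.

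Cells were counted in unique molecular identifiers (UMIs) of 3′ transcript ends, and levels are given as CPM, the UMIs of a gene over those of all genes brought to a common total. CPM of the members and listed genes in an embryo's All-Hypo or neuron-like cells are scaled by TMM, a factor per embryo that sets most genes equal. CPM of summed markers, of single libraries, of clusters and the cells outside them, of cells split by a marker gene and of cells pooled over embryos are over plain UMI totals, and none is scaled by gene length. The SE of a log2 fold change, here and below, is its size over the square root of the edgeR F statistic. It need not match the spread of the embryos' own values. Depth ranged from 5363119 to 7487417 UMIs per control embryo and from 658175 to 6299181 per mutant embryo. Clustering without the 7 members gave 27 clusters. Those not named as vessel, leptomeningeal or microglia-like, called All-Hypo, held 6839 control and 6455 *Eed-cKO* cells, with medians of 4768 and 4426 UMIs per cell. Neuron-like clusters held 5226 control and 4644 *Eed-cKO* cells, and 1153 and 1002 cells were left unnamed. Among these were 2 clusters made of *Eed-cKO* cells alone, 225 cells led by *Alas2*, *Cga* and *Crybb1* and 61 cells led by *Tmem72*, *Ttr*, *Prr32* and *Tshb*, which stay in the All-Hypo group although these leading genes are not neuronal. The hypothalamic marker *Nkx2-1* was detected in 1739 control and 2276 *Eed-cKO* All-Hypo cells. The targeted gene *Eed* was at 32.0 ± 1.90 CPM in control (SD, n = 6) and 23.4 ± 2.62 CPM in *Eed-cKO* (SD, n = 9), a log2 fold change of -0.45 (SE 0.08, edgeR quasi-likelihood adjusted p = 0.000449), and its groups did not overlap. The floxed exons, per the study's methods, lie inside the gene and before its 3′ end, so that 3′ counts do not check the deletion itself. Barcodes found in more than 1 library numbered 101, and 16 cells shared one within an embryo.

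*Aldh1a1*, *Aldh1a2* and *Crabp1* separated the genotypes completely in the All-Hypo cells, *Aldh1a1* being lower and the other two higher in every *Eed-cKO* embryo. Over all 12545 genes tested, every *Eed-cKO* embryo was below every control embryo for 2.66% and above for 4.03%, and 27.7% of genes passed an adjusted p of 0.05. Because the members were selected on this contrast, nothing is read from their number.

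*Aldh1a1* control levels in the embryos ranged from 2.88 to 80.1 CPM with a median of 40.8. In *Eed-cKO* embryos the lowest was 0, the median 1.54 and the highest 2.46 CPM. The groups did not overlap, although control embryo 1, at 2.88 CPM, lay close to the highest mutant. The control range was wide, and most control UMIs came from a few cells per embryo, described below. The log2 fold change was -5.01 (SE 0.53), from 1522 control and 42 *Eed-cKO* UMIs.

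*Aldh1a2* went the other way from almost nothing. Its control level was 0 at the lowest, 0.168 at the median and 0.801 CPM at the highest, and its *Eed-cKO* level 1.58, 4.86 and 7.86 CPM. The groups did not overlap, with a log2 fold change of 3.81 (SE 0.43) and 12 against 164 UMIs. Of the 164, 47 lay in unnamed clusters, 21 of them at 57.7 CPM in the cluster led by *Tmem72* and 16 in that led by *Alas2*, and without these 2 clusters the log2 fold change was 3.55 (SE 0.44). *Aldh1a3* was the rarest of the 3 enzymes, with 36 control and 26 *Eed-cKO* UMIs. It lay at 0.195, 0.929 and 1.67 CPM in control and 0, 0.607 and 1.43 CPM in *Eed-cKO*, so the groups overlapped across most of their ranges. It did not reach the median level required of a tested gene, and with no such filter its log2 fold change was -0.35 (SE 0.47).

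*Crabp1* was the most abundant of the members in *Eed-cKO*. Its lowest, median and highest control levels were 5.25, 8.20 and 15.6 CPM, against 53.7, 89.5 and 101 CPM in *Eed-cKO*. No embryo of one genotype reached the other, and the log2 fold change was 3.27 (SE 0.17), with 335 against 2972 UMIs.

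The other 3 members shifted upwards with overlap. *Crabp2* was at 6.43, 7.43 and 13.8 CPM in control and 4.92, 16.3 and 18.3 CPM in *Eed-cKO* (log2 fold change 0.62, SE 0.24), with 6 of 9 mutants above every control. *Rarb* was at 4.14, 5.51 and 6.88 CPM in control and 6.01, 7.89 and 9.38 CPM in *Eed-cKO* (0.48, SE 0.16), with 7 of 9 mutants above every control. *Cyp26b1* was at 1.95, 2.52 and 7.21 CPM in control and 4.05, 8.25 and 13.9 CPM in *Eed-cKO* (1.33, SE 0.30), with 5 of 9 above every control. Ordered by mean CPM, control embryos had *Aldh1a1* (41.8), *Crabp2* (9.23), *Crabp1* (8.96), *Rarb* (5.65), *Cyp26b1* (3.44), *Aldh1a3* (0.929) and *Aldh1a2* (0.314), where *Crabp2* and *Crabp1* differed by less than their SDs of 3.30 and 3.55, and *Crabp1* and *Rarb* by less than the larger of theirs. In *Eed-cKO* the order was *Crabp1* (86.2), *Crabp2* (14.3), *Cyp26b1* (8.67), *Rarb* (7.90), *Aldh1a2* (4.71), *Aldh1a1* (1.28) and *Aldh1a3* (0.653), where *Cyp26b1* and *Rarb*, and again *Aldh1a1* and *Aldh1a3*, were closer than the larger SD of each pair (3.49 and 0.940).

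**Figure D1:**
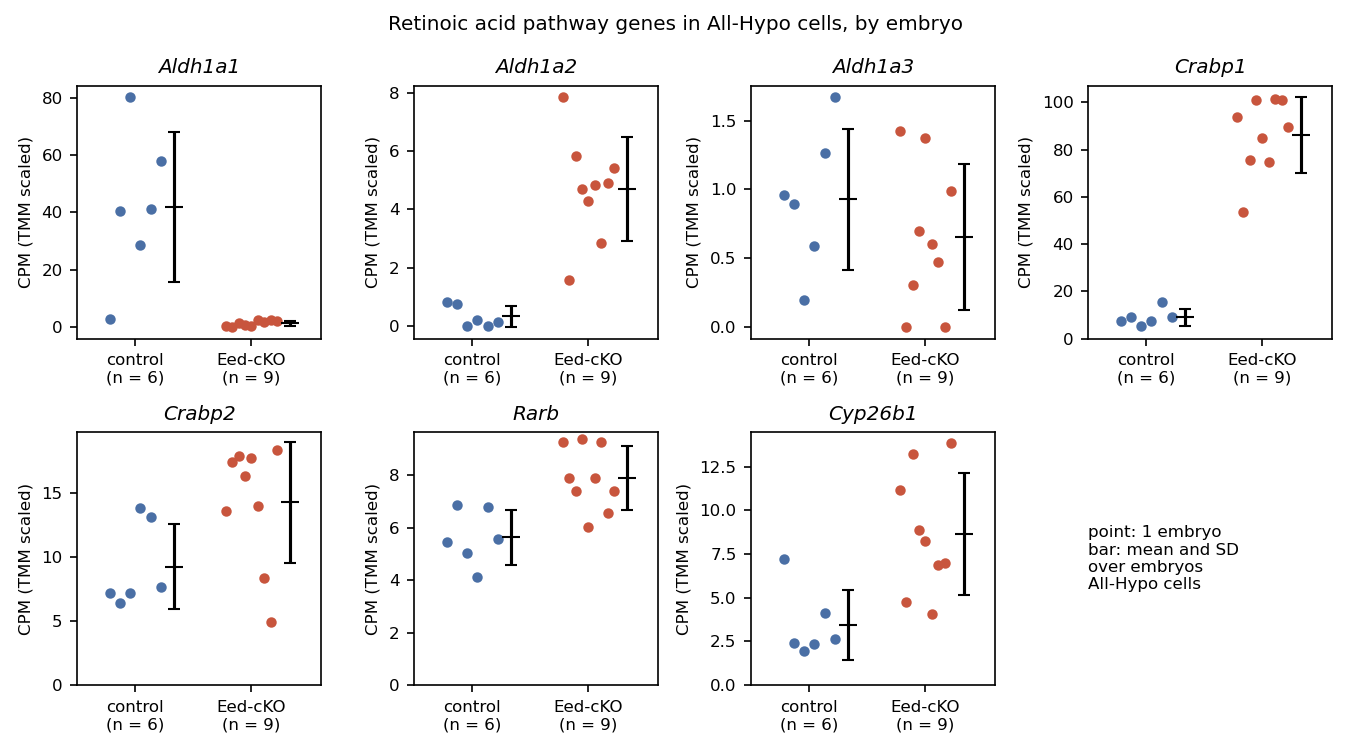
Level of each member in the All-Hypo cells of every embryo, in CPM, with 1 point per embryo for 6 control and 9 Eed-cKO embryos and a bar of mean and SD. The groups do not overlap for Aldh1a1, Aldh1a2 and Crabp1 and overlap for the other members.

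Nearly all *Aldh1a1* of control came from very few cells. Only 50 of 6839 control All-Hypo cells (0.731%) had a UMI of it. When the neuron-like cluster with most of these cells was divided again, without the members, 1 subcluster of 18 control cells and 1 *Eed-cKO* cell held 1465 of the 1522 control UMIs (96.3%). These 18 cells were 0.263% of the control All-Hypo cells and came from all 6 control embryos and 13 of the 22 control libraries.

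Of the 18 cells, 14 had *Aldh1a1*, at 5 to 316 UMIs per cell with a median of 78.5. Control embryos 1 to 6 had 4, 3, 2, 1, 6 and 2 cells of the subcluster, which held 17, 257, 394, 144, 247 and 406 *Aldh1a1* UMIs. The number of such cells and the UMIs did not follow each other, since embryo 1 had 4 cells and the fewest UMIs. All other control cells of these embryos together held 1, 13, 18, 1, 14 and 10 UMIs.

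The subcluster was dopaminergic-like by the markers *Th* (the rate-limiting enzyme of dopamine synthesis), *Ddc* (the decarboxylase that follows it), *Slc6a3* (the dopamine transporter) and *Slc18a2* (the vesicular transporter). *Th*, *Ddc* and *Slc6a3* were each detected in 18 of its 18 control cells and *Slc18a2* in 17. It held 439 of the 509 control UMIs of *Slc6a3*. Its leading genes were *Aldh1a1*, *Slc6a3*, *Pitx3*, *Chrnb3*, *En1*, *Chrna6*, *Mob3b*, *En2*, *Th* and *Prima1*. *Pitx3* and *En1*, which encode transcription factors known from midbrain dopamine neurons, were detected in 12 and 14 of the 18 cells, which held 28 of 42 and 140 of 207 control UMIs. *Nkx2-1*, a hypothalamic regulator, was detected in 3 of the 18 cells, against 1739 of all 6839 control All-Hypo cells. With 18 cells, these counts are too few to read a difference in *Nkx2-1* from. What part of the dissected tissue these cells came from was not tested.

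Their median depth was 8729 UMIs per cell, above the control All-Hypo median given before, and 5 of the 19 cells were among the 6% of cells with the highest doublet scores of their library. With all such cells removed the log2 fold change of *Aldh1a1* between genotypes was -4.26 (SE 0.59). None of the 19 barcodes was shared with another library.

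Outside the subcluster, *Aldh1a1* was sparse in both genotypes. It was found in 36 control cells with 57 UMIs, of which 12 lay in 1 cell, and in 28 *Eed-cKO* cells with 41 UMIs. Pooled over cells this was 1.53 CPM in control and 1.24 CPM in *Eed-cKO*. Of all 42 *Eed-cKO* All-Hypo UMIs, 28 lay in 15 astrocyte-like cells and 8 in neuron-like cells. Astrocyte-like cells of control held 15 UMIs in 4 cells, with the 12 UMIs of 1 cell among them. Without the subcluster the log2 fold change was -0.32 (SE 0.53), against -5.03 (SE 0.51) with it under the same setting of no filter on low counts. In neuron-like cells alone it was -7.07 (SE 0.61) with the subcluster and -1.81 (SE 0.58) without it.

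Dopaminergic-like cells were also counted without the subcluster, as All-Hypo cells with at least 3 of the 4 markers. Control had 56 such cells, of which 15 had *Aldh1a1*, with 1477 UMIs. Of them 38 lay outside the subcluster, where 1 had *Aldh1a1*. *Eed-cKO* had 11 such cells in 6 embryos, of which 1 had *Aldh1a1*, with 1 UMI. *Th* was detected in 270 control and 174 *Eed-cKO* All-Hypo cells, of which 17 and 3 had *Aldh1a1*. *Aldh1a1* thus belonged to a small fraction of the cells with *Th* in either genotype.

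Libraries differed widely in *Aldh1a1*. Of 22 control libraries, 6 had no UMI of it and 8 had more than 50 UMIs, and the highest stood at 279 CPM. Of 26 *Eed-cKO* libraries, 12 had none, none had more than 50 UMIs, and the highest stood at 6.09 CPM.

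**Figure D2:**
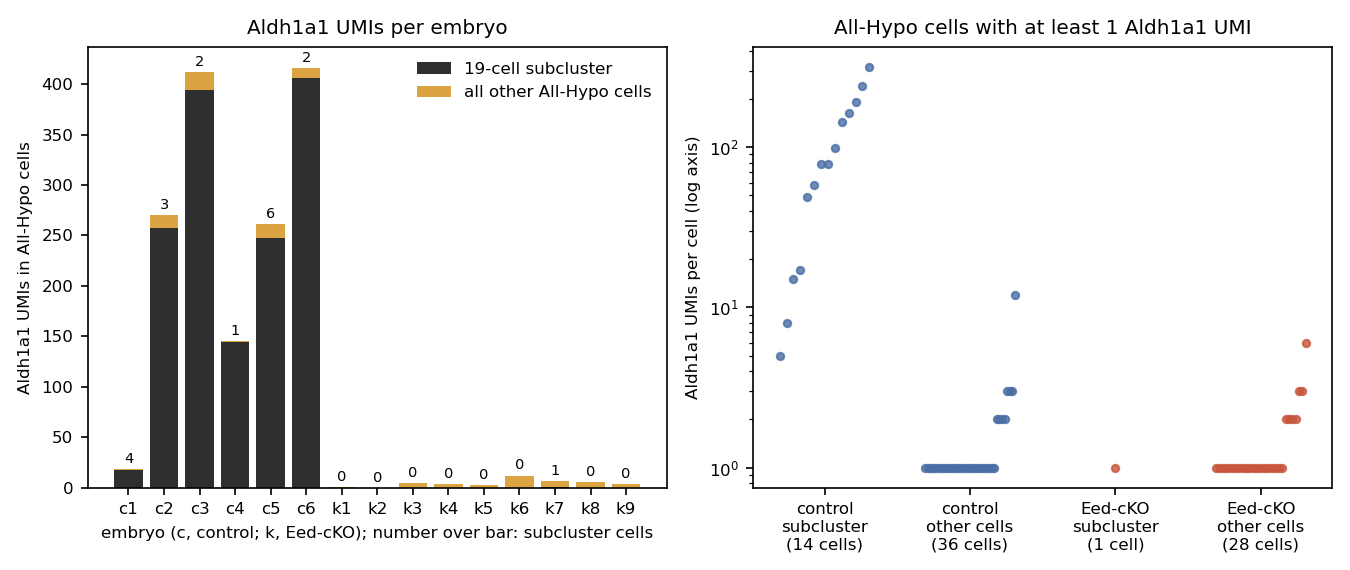
Left, Aldh1a1 UMIs of each embryo's All-Hypo cells, split between the dopaminergic-like subcluster of 19 cells and all others. Right, UMIs per cell with Aldh1a1, on a log axis. The subcluster holds 1465 of 1522 UMIs in control and 1 of 42 in Eed-cKO.

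The vascular leptomeningeal-like cells, outside the All-Hypo group, had the highest levels of most members. Pooled over embryos, they held *Aldh1a2* at 678 CPM in control and 512 CPM in *Eed-cKO*, *Crabp2* at 599 and 319 CPM, *Cyp26b1* at 401 and 162 CPM, *Aldh1a1* at 89.8 and 103 CPM and *Rarb* at 62.6 and 100 CPM. *Aldh1a2* was detected in 48 of the 89 control cells of this kind and 150 of the 268 mutant cells. *Crabp1* was low there, at 6.26 and 13.5 CPM. These pooled values have no replicate error and were not tested between genotypes.

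The share of this cell kind in an embryo's cells was 0 to 3.41% in control and 1.84 to 6.12% in *Eed-cKO*, with overlap, and was not tested. Within the All-Hypo cells the summed level of 5 of its markers (*Col1a1*, *Col1a2*, *Col3a1*, *Dcn* and *Lum*) was 2.18 to 21.6 CPM in control and 32.8 to 152 CPM in *Eed-cKO*, with no overlap. *Col1a2* and *Dcn* rose by 2.98 (SE 0.37) and 5.06 (SE 0.58) on the log2 scale (edgeR adjusted p = 3.55e-06 and 1.32e-06). *Lum* was at 0 in the median control embryo.

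Set against these markers, *Aldh1a2* had 26.1 UMIs per 1000 marker UMIs in the leptomeningeal-like cells of *Eed-cKO* (95% exact Poisson interval 24.2 to 28.2) and 50.9 (45.5 to 56.7) in those of control. In All-Hypo cells it had 59.1 (50.4 to 68.9) in *Eed-cKO* and 41.5 (21.5 to 72.5) in control. In neuron-like cells it had 252 (202 to 311) in *Eed-cKO* and 112 (56.0 to 201) in control. In astrocyte-like cells it had 31.0 (20.4 to 45.1) in *Eed-cKO*, near the ratio of the *Eed-cKO* leptomeningeal-like cells, and 0 (0 to 90.0) in control. Intervals here and below cover counting error only, and those of the ratios take the marker UMIs as fixed. How much of the All-Hypo *Aldh1a2* was RNA of leptomeningeal-like cells was not tested beyond these ratios. With every deposited cell included, leptomeningeal-like cells too, the log2 fold change of *Aldh1a2* was 1.28 (SE 0.51) instead of 3.81 and that of *Aldh1a1* -3.05 (SE 0.46) instead of -5.01. For *Cyp26b1* it was then 0.74 (SE 0.46) and for *Rarb* 0.79 (SE 0.16).

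**Figure D3:**
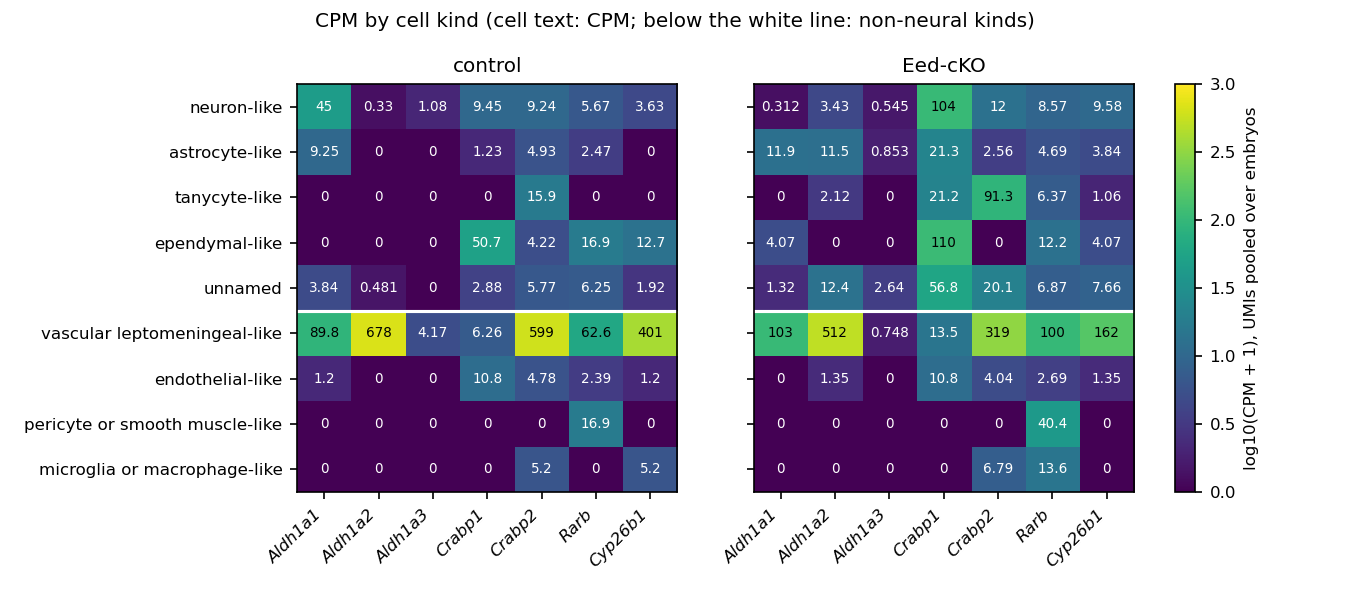
Pooled level of each member in each cell kind of control and Eed-cKO, in CPM on a log colour scale. Vascular leptomeningeal-like cells are highest for Aldh1a2, Crabp2, Cyp26b1 and Rarb in both genotypes, and neuron-like Crabp1 goes from 9.45 CPM in control to 104 CPM in Eed-cKO.

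In neuron-like cells *Aldh1a2* went from 11 UMIs in 7 control cells to 88 UMIs in 66 *Eed-cKO* cells (log2 fold change 3.27, SE 0.49), and it was 3.801 without control embryo 1 and 3.765 without control embryo 2. In astrocyte-like cells control held 0 UMIs of it and *Eed-cKO* 27, which was at least 6.22-fold higher against a floor of 3 UMIs over the control group. *Cyp26b1* in astrocyte-like cells went from 0 to 9 UMIs, at least 2.07-fold higher by the same floor. Per 1000 leptomeningeal marker UMIs, these mutant cells had 10.3 UMIs of *Cyp26b1* (4.72 to 19.6). The leptomeningeal-like cells of *Eed-cKO* had 8.24 (7.18 to 9.41). How much of the astrocyte-like *Cyp26b1* was RNA of leptomeningeal-like cells was not tested. *Crabp1* in astrocyte-like cells rested on 2 control UMIs and 50 mutant UMIs, 23 of the latter from mutant embryo 5. It was detected in 4.41% of the mutant astrocyte-like cells (2.82 to 6.55%) and 0.585% of the control ones (0.0709 to 2.10%). The mutant share overlaps the 3.25% (0.893 to 8.12%) of mutant endothelial-like cells, a type expected to lack it, which was 2.67% in control. That mutant reference rests on 4 of 123 cells, too few to decide whether the astrocyte-like UMIs are background, and this was not tested. Other mutant non-neural kinds, also of few cells, had none (0 of 46 microglia or macrophage-like and 0 of 43 pericyte or smooth muscle-like cells).

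*Crabp1* was spread over many more cells in *Eed-cKO*. It was detected in 123 control All-Hypo cells (1.80%) and in 774 *Eed-cKO* cells (12.0%), and cells with 5 or more UMIs numbered 18 and 177. A median cell with *Crabp1* had 1 UMI in control and 2 in *Eed-cKO*, and the highest cells had 18 and 60 UMIs. Endothelial-like cells, as a type expected to lack it, had a UMI in 2.67% of their control cells and in 3.25% of their mutant cells, with medians of 4605 and 4617 UMIs per cell. The control All-Hypo share lay below the endothelial-like share and by itself is not read as expression, whereas the *Eed-cKO* share lay above it. The control endothelial-like share rests on 4 of 150 cells (0.731 to 6.69%), which held 9 UMIs. No UMI was found in microglia or macrophage-like cells (0 of 50 control, 0 of 46 mutant). None was found in pericyte or smooth muscle-like cells either (0 of 58 and 0 of 43). These 2 kinds had lower medians, of 1262 to 3026 UMIs per cell. Against them the control All-Hypo share would not lie below the reference, and so few cells cannot decide between the references. A share over all cells also cannot settle expression in single cell kinds, since the 18 control cells with 5 or more UMIs held 54.0% of the control UMIs. In single libraries *Crabp1* ranged from 1.66 to 21.9 CPM in control and from 46.7 to 173 CPM in *Eed-cKO*, so that no control library reached any mutant library.

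Most *Crabp1* of *Eed-cKO* lay in 1 neuron-like cluster, led by *Dmbx1*, *Hoxc13*, *Hoxc10*, *Hoxd10*, *Lamp5* and *Tfap2b*. This cluster had 23 control and 1470 *Eed-cKO* cells, 0.0973 to 0.710% of the All-Hypo cells of a control embryo and 19.9 to 28.0% of those of a mutant. It held 2194 of the 2972 mutant UMIs, and in single mutant embryos 66.1 to 80.9% of them. Its *Crabp1* level was 158 CPM at the lowest mutant embryo, 249 at the median and 360 at the highest, and 21.6 to 31.4% of its cells had a UMI. Most cells of the cluster therefore had no *Crabp1* detected at this depth.

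*Crabp1* also differed outside that cluster. In the other neuron-like cells it was at 5.23, 8.30 and 17.4 CPM in control and 11.01, 24.8 and 34.0 CPM in *Eed-cKO*, with overlap between the groups. In control its highest pooled levels were in neuron-like clusters led by *Emx2* and *Fezf2* (42.9 CPM) and by *Cited1*, *Npy* and *Tbx3* (41.9 CPM), and in the ependymal-like cells (50.7 CPM, against 110 CPM in *Eed-cKO*). In the cluster led by *Cited1* it was at 67.6 CPM in *Eed-cKO*.

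Within the *Eed-cKO* neurons, cells with a UMI of any *Hox* gene (2068 cells) were compared with those with none (2576 cells), embryo by embryo, with the *Hox* genes left out of the test. *Aldh1a2* and *Cyp26b1* were higher and *Crabp2* lower in the *Hox*-positive cells, and 12.6% of all 14079 genes passed this test. The members were chosen with their genotype differences known, and *Aldh1a2* and *Cyp26b1* were also higher in *Eed-cKO*. The *Crabp1*-rich cluster, with several *Hox* genes among its leading genes, had 23 control and 1470 *Eed-cKO* cells. The gate is therefore not independent of that choice, and the adjusted p-values of members here are not separate support. *Cyp26b1* was at 16.9 ± 10.1 CPM in *Hox*-positive and 3.15 ± 1.38 CPM in *Hox*-negative neurons (SD, n = 9) and was higher in 8 of 9 embryos (log2 fold change 2.47, SE 0.24, edgeR adjusted p = 6.66e-13). With cells thinned to 2000 UMIs it was 1.36 (SE 0.36, adjusted p = 0.00322). *Aldh1a2* was at 6.02 ± 2.61 and 1.66 ± 1.56 CPM, higher in 9 of 9 embryos (1.66, SE 0.39, adjusted p = 0.00121, 63 against 25 UMIs).

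*Crabp2* was at 8.07 ± 3.33 and 16.5 ± 9.24 CPM, lower in 7 of 9 embryos (-0.70, SE 0.21, adjusted p = 0.0172). This call for *Crabp2* was lost without mutant embryo 1, 3, 5 or 9 (adjusted p = 0.0725, 0.0589, 0.0530 and 0.0577) and with DESeq2 (adjusted p = 0.0563). *Rarb* was at 7.22 ± 2.85 and 8.17 ± 3.03 CPM (-0.20, SE 0.24, adjusted p = 0.692), and *Aldh1a1* and *Aldh1a3* had too few UMIs for the test. When every cell was thinned to 2000 UMIs before gating, *Aldh1a2* (1.69, adjusted p = 0.0791) and *Crabp2* (-0.89, adjusted p = 0.0794) missed the threshold.

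*Crabp1*, chosen as a gene of the gained neurons, is given here without a test. It was at 195 ± 33.4 CPM in *Hox*-positive and 22.99 ± 5.95 CPM in *Hox*-negative mutant neurons (SD, n = 9), with ranges of 145 to 252 and 12.9 to 34.0 CPM that did not overlap (log2 fold change 3.05, SE 0.09).

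**Figure D4:**
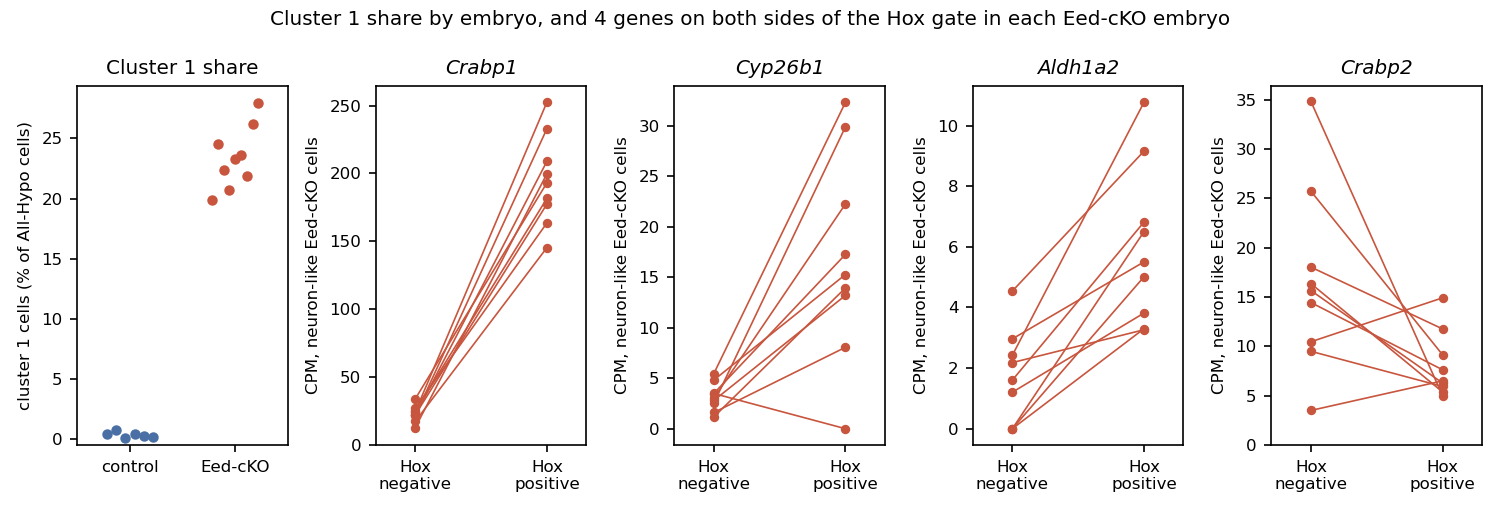
Share of All-Hypo cells in the Crabp1-rich cluster (cluster 1) by embryo, and level of Crabp1, Cyp26b1, Aldh1a2 and Crabp2 in Hox-negative and Hox-positive neuron-like cells of the 9 Eed-cKO embryos, in CPM, with lines joining the 2 sums of an embryo. Aldh1a2 and Crabp1 are higher in Hox-positive cells in 9 of 9 embryos, Cyp26b1 is higher in 8 of 9 and Crabp2 is lower in 7 of 9.

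The same comparison was made for *Tfap2b*, which encodes a transcription factor and leads the *Crabp1*-rich cluster, between 523 mutant neurons with a UMI of it and 4121 without. *Cyp26b1* was at 17.99 ± 14.1 and 7.92 ± 4.37 CPM (SD, n = 9), higher in 6 of 9 embryos (log2 fold change 1.41, SE 0.29, edgeR adjusted p = 4.61e-05), where 7.23% of all genes passed. As in the *Hox* gate, this p-value is not independent of how the members were chosen. *Crabp1* was at 192 ± 102 and 88.5 ± 22.9 CPM and is a description only (1.05, SE 0.09), with 8 of 9 embryos higher. Its embryos ranged from 38.9 to 341 CPM in *Tfap2b*-positive and from 43.5 to 106 CPM in *Tfap2b*-negative cells, a spread that this SE does not show. Both members varied more between embryos in the *Tfap2b*-positive than in the *Tfap2b*-negative cells. The positive sums held only 14 to 87 cells per embryo, against 128 to 782 in the negative sums, and the part of counting error was not tested.

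In neuron-like cells alone the log2 fold change between genotypes was 3.405 (SE 0.16) for *Crabp1*, 1.38 (SE 0.28) for *Cyp26b1*, 0.55 (SE 0.16) for *Rarb*, 0.31 (SE 0.22) for *Crabp2* and -0.97 (SE 0.47) for *Aldh1a3*, again as descriptions. *Aldh1a3* there had 36 UMIs in 24 control cells and 14 UMIs in 12 mutant cells.

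The main holders of *Cyp26b1*, *Rarb* and *Crabp2* among the neural cells differed from one another. *Cyp26b1* in control was found mostly in a neuron-like cluster led by *Sp8* and *Dlx1* (59 of 128 UMIs), whereas in *Eed-cKO* 167 of 286 UMIs lay in the *Crabp1*-rich cluster. *Rarb* was more even. It had 47 of 210 control UMIs in the cluster led by *Sp8* and 63 of 266 mutant UMIs in the *Crabp1*-rich cluster, and its highest control level among the clusters named here was 20.4 CPM in neurons led by *Barhl1* and *Irx6*. *Crabp2* in control had 97 of 333 UMIs in the cluster led by *Emx2* and *Fezf2*, at 75.6 CPM. In *Eed-cKO* the neuron-like clusters together held 308 of 476 UMIs. The single cluster with most was that of the tanycyte-like cells, glia-like cells that line the third ventricle, with 86 UMIs at 91.3 CPM, against 4 UMIs at 15.9 CPM in control.

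Glutamatergic cells, with *Slc17a6* and no *Slc32a1*, were compared with GABAergic cells, with *Slc32a1* and no *Slc17a6*, within each genotype. In control, where 7.55% of genes passed, *Crabp2* was at 12.9 ± 4.16 CPM in glutamatergic and 3.77 ± 3.65 CPM in GABAergic cells (SD, n = 6), higher in 6 of 6 embryos (log2 fold change 1.80, SE 0.29, edgeR adjusted p = 2.11e-05). *Cyp26b1* was on the GABAergic side, at 2.23 ± 2.10 against 7.95 ± 3.52 CPM, in 6 of 6 embryos (-1.94, SE 0.40, adjusted p = 0.000933). *Crabp1* was also lower in glutamatergic cells, in 5 of 6 embryos (-1.09, SE 0.32, adjusted p = 0.0293), a call lost without control embryo 1, 2, 3 or 4 (adjusted p = 0.225, 0.155, 0.0760 and 0.0844) and with DESeq2 (adjusted p = 0.0666).

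*Aldh1a1*, whose cells in control had been chosen with known results, is given without a test. It had 426 glutamatergic and 7 GABAergic UMIs (3.99, SE 0.53), and the log2 fold change was 0.52 without the dopaminergic-like subcluster, 1.07 without control embryo 3 and 1.67 with DESeq2. With all cells thinned to 2000 UMIs the adjusted p was 0.0632 for *Crabp2*, 0.236 for *Cyp26b1* and 0.438 for *Crabp1*. In *Eed-cKO*, where 5.68% of genes passed, *Crabp1* was at 42.4 ± 21.3 CPM in glutamatergic and 97.7 ± 46.9 CPM in GABAergic cells (SD, n = 9), lower in 7 of 9 embryos (-1.36, SE 0.16). With thinned cells this was -0.27. As a gene chosen for the neurons gained in *Eed-cKO*, it is described here without a test.

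Neurons with *Th* were compared with neurons without it. In control, where 2.77% of genes passed, *Aldh1a1* was at 48.7 to 2271 CPM in 243 *Th*-positive cells and 0.181 to 1.42 CPM in 4983 *Th*-negative cells, higher in 6 of 6 embryos (log2 fold change 9.84, SE 0.13). Without the dopaminergic-like subcluster it was 1.17 (SE 0.94). These values too are a description. In *Eed-cKO*, where 1.86% of genes passed and 7 embryos had enough cells, *Crabp1* was at 64.5 ± 67.2 CPM in *Th*-positive and 104 ± 14.02 CPM in *Th*-negative neurons, lower in 5 of 7 embryos (-0.86, SE 0.21), again without a test. Without mutant embryo 7 it was -0.54.

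Beyond the members, a gene of retinol uptake, receptor genes and 1 known target were among those that rose in *Eed-cKO*, *Stra6* and *Meis1* most of all, and no cofactor gene passed. Of a list of 48 other genes of retinoid metabolism and signalling, 40 were in the table and 28 were tested in All-Hypo cells, where 9 rose, 2 fell and 17 did not pass. The list had been chosen with earlier results known. Its median log2 fold change was 0.093, against 0.0056 over all genes, and 11 of 28 is to be set beside the 27.7% of all genes that passed. Without TMM scaling the share of higher calls among all genes was 67.8% instead of 55.1%, the median of all genes moved to 0.052, and *Adh7* (adjusted p = 0.0513) and *Rdh13* (adjusted p = 0.0652) no longer passed.

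Among genes of retinol uptake and storage, *Stra6*, the membrane receptor for retinol-binding protein, rose from 1.504 ± 1.045 to 6.01 ± 2.22 CPM (log2 fold change 2.08, SE 0.33, edgeR adjusted p = 6.79e-05). With every deposited cell included it was 1.01 (SE 0.23, adjusted p = 0.00318), and the part of the leptomeningeal markers, which were higher in the same cells of *Eed-cKO*, was not tested. In retinol and retinal conversion, *Rdh5*, a retinol dehydrogenase, rose by 1.18 (SE 0.25, adjusted p = 0.00145) and *Dhrs4*, a short-chain dehydrogenase, by 0.83 (SE 0.18, adjusted p = 0.00135). *Adh7*, an alcohol dehydrogenase that oxidises retinol, fell by 0.72 (SE 0.25, adjusted p = 0.0383), and *Rdh13* fell by 0.25 (SE 0.08, adjusted p = 0.0239). *Adh5*, the most abundant of this group named here, was at 150 ± 8.02 and 155 ± 11.1 CPM.

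Of the 5 other receptor genes, 4 rose. *Rara* went from 10.1 ± 1.298 to 15.9 ± 3.10 CPM (0.67, SE 0.14, adjusted p = 0.00138) and *Rarg* from 2.36 ± 0.410 to 3.92 ± 2.12 CPM (0.91, SE 0.28, adjusted p = 0.0203). The partner receptors *Rxra* (0.53, SE 0.18, adjusted p = 0.0325) and *Rxrb* (0.29, SE 0.09, adjusted p = 0.0251) passed by less. All 7 cofactor genes were tested and 0 passed with edgeR or with DESeq2 (2 had an unadjusted p under 0.05 with edgeR), with *Ncor1* at 192 ± 29.9 and 170 ± 19.4 CPM and *Ncoa1* at 80.1 ± 10.2 and 78.5 ± 11.2 CPM. The fatty acid binding protein gene *Fabp5*, whose product also carries retinoic acid, was at 413 ± 83.1 and 419 ± 76.8 CPM. *Aldh8a1* and the degrading enzyme gene *Cyp26a1* stayed below 0.5 CPM on average and were not tested.

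Among known targets, *Meis1*, a homeobox cofactor of *Hox* proteins, rose from 7.84 ± 2.21 to 29.0 ± 6.57 CPM (1.90, SE 0.17, adjusted p = 6.22e-08) and was the 1 gene of the list whose groups did not overlap. This 1 of 28 tested list genes is to be set beside all 12545 genes tested. Of those, 4.03% were above and 2.66% below with no overlap, so nothing is read from this count. *Meis2* was at 104 ± 22.9 and 128 ± 14.8 CPM (0.30, SE 0.11, adjusted p = 0.0507). The weaker calls were lost when single embryos were left out. *Adh7* was lost in 10 of 15 fits that left out an embryo (without mutants 3, 4, 5, 7 and 8 or controls 1, 2, 3, 5 and 6, adjusted p up to 0.0890), *Rxra* in 6 (mutants 5, 7 and 9, controls 2, 3 and 5, up to 0.0946) and *Rxrb* in 4 (mutant 3, controls 2, 3 and 6, up to 0.0683). *Rarg* was lost without control 1 (0.0519) and *Rdh13* without control 3 (0.0538). With limma-voom and TREAT these same 5 genes did not pass, with adjusted p of 0.154 to 0.646. The control values are for n = 6 and the *Eed-cKO* values for n = 9 (SD).

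**Figure D5:**
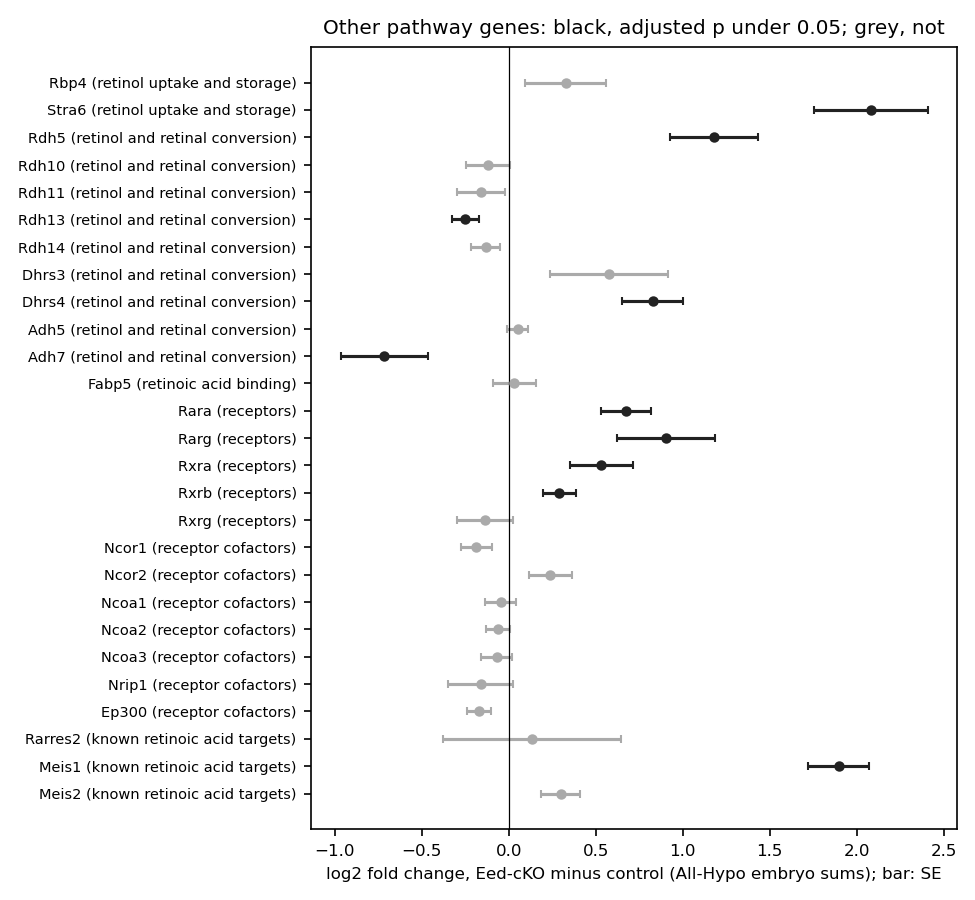
Log2 fold change of Eed-cKO over control in All-Hypo cells for 27 tested genes of the pathway list, by role, with bars of 1 SE, black where the adjusted p was under 0.05. Of these, 8 are higher, 2 lower and 17 not past the threshold, with Stra6 (2.08) and Meis1 (1.90) highest.

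Within neuron-like cells 35 genes of the list were tested, of which 5 rose and 30 did not pass, where 14.2% of all genes passed. Among them were *Meis1* (2.22, SE 0.20), *Stra6* (1.63, SE 0.33), *Dhrs4* (0.70, SE 0.19) and *Rxrb* (0.30, SE 0.10). Within astrocyte-like cells 27 were tested, of which 6 rose and 21 did not pass, where 12.7% of all genes passed. Among them were *Tgm2* (2.70, SE 0.80), *Meis1* (1.46, SE 0.28), *Meis2* (1.35, SE 0.27), *Rara* (1.23, SE 0.33) and *Rarres2* (1.13, SE 0.28). The difference between astrocyte-like and neuron-like cells was not tested. In the astrocyte-like cells of *Eed-cKO* the summed leptomeningeal markers stood at 371 CPM, against 25.3 CPM in control, and their part in these values was not tested.

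The genes most like *Aldh1a1* across 25 clusters of control, by Pearson correlation of log2(CPM + 1) over 12541 genes with at least 100 UMIs, were *Adamts2* (r = 0.68), *Cyp1b1* (r = 0.64) and *Fkbp11* (r = 0.63). The cluster with 1472 of the 1522 *Aldh1a1* UMIs held 151 UMIs of *Adamts2*, 1 of 142 of *Cyp1b1* and 36 of 101 of *Fkbp11*, so that *Cyp1b1* was all but absent where *Aldh1a1* was most abundant. Those most like *Crabp1* across 26 clusters of *Eed-cKO*, over 12861 genes, were *Endog* (r = 0.79), *Cpt1c* (r = 0.76) and *Trmt61a* (r = 0.76), which had 220 of 902, 463 of 2094 and 73 of 341 UMIs in the *Crabp1*-rich cluster. The clusters share libraries and differ in depth, and these values are descriptions.

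No member passed a test of sex. In a fit with genotype and sex on All-Hypo sums, 4 of 12545 genes (0.0319%) passed and 0 of the 6 tested members were among them. The unadjusted p was under 0.05 for 1 member, *Aldh1a1*, with a log2 difference of males over females of 1.32 (SE 0.51, edgeR p = 0.0169, adjusted p = 1.00). In control the 2 females, embryos 1 and 4 (2.88 and 28.6 CPM), lay below all 4 males (40.4 to 80.1 CPM). In *Eed-cKO* the sexes overlapped, at 0.695 to 2.43 CPM in females and 0 to 2.46 CPM in males. With DESeq2, again 0 members passed.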

How the data were processed

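Single cell RNA-seq was performed on dissociated E18.5 mouse hypothalamus with the ddSEQ system and a 3′ library kit. Per the labels and the study's methods, the authors aligned reads to mm10 with STAR 2.5.2b and SAMtools 1.3, and removed cells with few UMIs, few genes or few UMIs per gene. They deposited 1 table of raw UMI counts per gene and cell, with the library in the name of each cell. Per-sample columns not used numbered 0. The lowest cell had 601 UMIs and 318 genes. The authors predicted doublets only for a side analysis, so the deposited table keeps every cell past their filters, and the main fits here kept them too. In the alternative without doublets, the 6% of cells with the highest Scrublet score in each library were removed.

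The 7 members, the pathway list and the gates were chosen with earlier results of these data known. The genes named were the 7 members, every gene of the list past the threshold in All-Hypo cells (up to 12 by size) and the 2 or 3 most abundant of each role. Some genes that this rule names are not reported here. Embryos and dams were read from library names. The p-values come from fits to embryo sums that share spread estimates between genes. They need not measure the spread of a single gene between embryos, above all in the gate comparisons. In the *Tfap2b* gate *Cyp26b1* passed with 3 of 9 embryos going the other way.

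Clusters were found by the Leiden method (scanpy 1.11.5 and leidenalg 0.10.2) from 2000 variable genes without the members, with 30 components and a resolution of 1. Clusters were named from at least 3 markers, and left unnamed where leading genes went against the name. All-Hypo calls were identical for 99.993% of cells with the members kept. UMI counts were summed per embryo and cell kind, or per gate, with at least 10 cells per sum, and tested with edgeR 4.0.16 (R 4.3.3, TMM, quasi-likelihood, Benjamini-Hochberg over all genes, threshold 0.05), with the embryo as a block between gates. Tested genes had at least 15 UMIs in all and 2 in a sum, and in All-Hypo cells a median log-CPM of at least 1.5. In simulated counts, 97% of changes of 1 log2 unit in All-Hypo cells were recovered, 75% in neuron-like and 46% in astrocyte-like cells. Alternatives were DESeq2 1.42.0, limma 3.58.1 (voom with TREAT at 0.18), other scalings and filters, libraries as samples, sex, thinned cells, other gates, doublets removed and each embryo left out. Intervals are exact at a level of 0.95.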

Additional observations from a re-analysis of the deposited data

Results flagged for a closer look

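Among 28 groups of embryos examined (members by genotype and cell scope), chance alone would mark about 1 in 20, and 2 values stood apart. Both belong to *Crabp1* in control embryo 5. In All-Hypo cells it was at 15.6 CPM, against 9.12 CPM in the next embryo, a gap of 0.628 of the range of the 6 control embryos. In neuron-like cells it was at 17.5 CPM, against 9.72 CPM, a gap of 0.641 of the range. Both lay below the lowest *Eed-cKO* embryo. The same embryo held the largest library of the series, with 1207 cells.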

How the results depend on the processing

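Of 757 values of single genes under alternatives, 689 kept their direction and their side of the threshold or stayed within the spread, 59 lost their call, 9 moved and 0 reversed. Of 151 counts, 137 stayed within 1.5 times. The number of list genes past the threshold in All-Hypo cells (11) was 6 with limma-voom and TREAT and 7 to 13 with an embryo left out (7 without control embryo 3). It was 4 to 7 in neuron-like cells (5 in all) and 5 to 7 in astrocyte-like cells (6). The number of members past the threshold between glutamatergic and GABAergic control cells (4) was 2 with DESeq2, 0 with thinned cells and 2 to 4 with an embryo left out (2 without control embryo 3). In *Eed-cKO* (1) it was 0 with thinned cells and 1 to 1 with an embryo left out. For the *Th* gate in control (1) it was 2 with at least 2 UMIs of *Th*, 0 without the *Aldh1a1*-rich subcluster (an alternative chosen after seeing the data) and 1 to 1 with an embryo left out. For the *Th* gate in *Eed-cKO* (1) it was 0 with DESeq2, 0 with 2 UMIs of *Th*, 0 with thinned cells and 0 to 2 with an embryo left out (0 without mutant 7, 2 without mutant 5). For the *Hox* gate (3) it was 1 with thinned cells and 2 to 3 with an embryo left out. For sex it was 0 to 0. The 1 member of the *Th* gate in control was *Aldh1a1*. In *Eed-cKO* the 1 member of the *Th* gate and of the glutamatergic comparison was *Crabp1*. The 4 of the control glutamatergic comparison include *Aldh1a1*. The gate values of *Aldh1a1* in control and *Crabp1* in *Eed-cKO* are descriptions, so counts that rest on them are not test results. Of all genes, 7.55% and 5.68% passed between glutamatergic and GABAergic cells (control and *Eed-cKO*), 2.77% and 1.86% for *Th* and 12.6% for *Hox*. The causes were not tested, except that thinning leaves out cells under 2000 UMIs (1231 control and 1015 *Eed-cKO*) and most UMIs of the others.

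Counts over all genes moved by more than 1.5 times in some fits. In All-Hypo cells 3478 became 1493 with TREAT and 5873 with each library as a sample. Between glutamatergic and GABAergic cells 1054 became 475 with DESeq2 and 378 thinned in control, and 787 became 282 thinned in *Eed-cKO*. For *Th* 390 became 177 with DESeq2 and 155 thinned in control, and 260 became 81, 32 and 114 with DESeq2, 2 UMIs of *Th* and thinning in *Eed-cKO*. For *Hox* 1775 became 1040 thinned, and for *Tfap2b* 1020 became 607 with DESeq2 and 550 thinned. In neuron-like cells the share of higher calls was 54.4% with TMM and 65.0% without. The fits without clusters of *Eed-cKO* cells alone and without the largest library were added after seeing the data. *Aldh1a1* fell under the median filter in 8 of the 15 fits that left out an embryo, and its log2 fold change was -5.07 to -4.84 in the other 7. Astrocyte-like values rest on fewest UMIs.

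No paired analysis was possible because embryos of the genotypes share no dam, and a replicate number is only a name.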
